A study of Mus musculus with 8 samples.

Results

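The genes described here are the clustered, replication-dependent histone genes of the mouse, and the values are the ChIP-seq peaks of Mgea5, Panx2 and Polr1c at each of them. Members were the protein-coding genes of the RefSeq annotation (GRCm38.p6, the assembly of mm10) whose symbol is H1f1 to H1f6 or H2ac, H2bc, H3c or H4c with a number, or whose older name begins with Hist1h, Hist2h, Hist3h or Hist4h. This gave 67 of 21887 protein-coding genes, 63 by current symbol and 4 by older name only (H4f16, formerly Hist4h4, H2bu2, formerly Hist3h2ba, H2aw, formerly Hist3h2a, and H4bc24, formerly Hist1h2br and counted as an H2B gene). A gene was counted as carrying a peak when at least 1 bp of a listed peak lay in the gene or within 1 kb on either side. The rule itself reads names only.

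ChIP-seq sequences the DNA that is crosslinked to an immunoprecipitated protein. The cells were primary neural progenitors from the hippocampus of male C57BL/6 mice, kept in culture, with no genetic change or treatment named. Antibodies against 3 proteins were used, with 2 replicates each. Mgea5 takes the sugar O-GlcNAc off other proteins, and its gene is now called Oga. Panx2 belongs to the pannexin family of membrane channels. Polr1c is found in both RNA polymerase I and RNA polymerase III. The study also has 2 input libraries, which were not used here, and nothing in the labels says that the replicates came from separate cultures or animals. Peak lists do not report expression, so the labelled cell type could not be checked against its markers.

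Replication-dependent histone genes supply the histones that package new DNA in S phase. They are short, mostly lack introns, lie together in clusters, and give mRNAs that end in a stem-loop in place of a poly(A) tail. Their transcription depends on the coactivator Npat, which gathers with the processing factors at the clusters in nuclear histone locus bodies, and dividing progenitors need a large supply of these mRNAs. The core histones H2A, H2B, H3 and H4 form the nucleosome, and the linker histone H1 binds where DNA enters and leaves it.

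The 67 members comprised 6 H1, 18 H2A, 18 H2B, 12 H3 and 13 H4 genes, with a median length of 492 bp against 17169 bp for all protein-coding genes. Only 6 were longer than 2 kb, the longest being H2bc6 with 37455 bp and H2bc22 with 14079 bp, so their windows hold far more sequence than the others. A gap of more than 100 kb was taken to separate clusters. Chromosome 13 held 54 members in 4 blocks: 18 genes at 21715711 to 21837530, 5 at 22035122 to 22043658, 29 at 23531044 to 23764412, and the pair H2ac1 and H2bc1, which encode testis histones, at 23.9 Mb. Chromosome 3 held 10 genes at 96219885 to 96270192, chromosome 11 held H2bu2 and H2aw, and chromosome 6 held H4f16. The 3 larger blocks of chromosome 13 lay near many tRNA genes, with 21, 15 and 26 of these within 100 kb, although no tRNA gene lay inside a block.

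The sequences below, taken from the RefSeq promoter table of the same assembly, are the 250 bases before the annotated start of the genes on which the results turn. Each is written 5′ to 3′ on the strand of its gene, and capitals mark letters that match a searched motif on either strand. H4c9, H4c12 and H4c6 are among the H4 genes with the highest Mgea5 folds, and H4c8 is the member with a Polr1c peak beside it in both replicates. H2ac11 shares its strongest Mgea5 peak with H4c9, and H3c14 and H3c15 are similar copies with a Polr1c peak in replicate 2.
H4c9, chr13:22041363-22041612, minus strand: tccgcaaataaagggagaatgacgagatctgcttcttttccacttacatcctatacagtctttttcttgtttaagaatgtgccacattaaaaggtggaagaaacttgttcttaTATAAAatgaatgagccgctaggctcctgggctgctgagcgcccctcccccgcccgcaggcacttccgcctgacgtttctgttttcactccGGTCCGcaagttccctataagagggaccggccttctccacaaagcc
H4c12, chr13:21750554-21750803, minus strand: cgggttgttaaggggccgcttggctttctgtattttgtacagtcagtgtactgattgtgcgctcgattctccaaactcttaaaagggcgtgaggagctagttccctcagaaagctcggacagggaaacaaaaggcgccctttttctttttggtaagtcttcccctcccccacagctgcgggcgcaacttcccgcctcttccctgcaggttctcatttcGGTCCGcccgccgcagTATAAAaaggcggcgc
H4c6, chr13:23551669-23551918, minus strand: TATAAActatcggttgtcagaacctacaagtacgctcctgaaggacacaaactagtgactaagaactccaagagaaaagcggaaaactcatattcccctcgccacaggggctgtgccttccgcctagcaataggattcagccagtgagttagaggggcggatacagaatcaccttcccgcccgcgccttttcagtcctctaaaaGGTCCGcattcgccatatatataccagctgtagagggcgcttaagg
H4c8, chr13:23530794-23531043, plus strand: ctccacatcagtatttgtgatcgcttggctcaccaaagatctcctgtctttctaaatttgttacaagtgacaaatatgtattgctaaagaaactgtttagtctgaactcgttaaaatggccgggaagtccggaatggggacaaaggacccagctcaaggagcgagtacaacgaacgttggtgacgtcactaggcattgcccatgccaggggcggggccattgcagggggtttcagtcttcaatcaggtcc
H2ac11, chr13:22042950-22043199, minus strand: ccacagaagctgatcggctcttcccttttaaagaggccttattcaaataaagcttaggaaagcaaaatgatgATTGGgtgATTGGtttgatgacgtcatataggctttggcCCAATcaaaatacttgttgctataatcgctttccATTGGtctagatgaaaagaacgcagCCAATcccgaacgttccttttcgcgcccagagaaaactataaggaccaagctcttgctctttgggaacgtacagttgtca
H3c14, chr3:96246435-96246684, plus strand: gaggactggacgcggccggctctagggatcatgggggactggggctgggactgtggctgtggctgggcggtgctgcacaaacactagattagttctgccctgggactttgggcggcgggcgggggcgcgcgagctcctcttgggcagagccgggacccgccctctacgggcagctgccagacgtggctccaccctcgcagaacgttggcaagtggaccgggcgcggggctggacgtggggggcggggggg
H3c15, chr3:96239128-96239377, minus strand: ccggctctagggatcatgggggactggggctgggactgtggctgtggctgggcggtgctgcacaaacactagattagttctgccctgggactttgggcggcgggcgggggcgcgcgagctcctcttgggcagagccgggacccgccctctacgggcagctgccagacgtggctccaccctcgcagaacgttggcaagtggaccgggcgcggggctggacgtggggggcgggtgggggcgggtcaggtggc

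A start was found in the promoter table for 62 of the 67 members, but not for H2bc21, H4c14, H3c7, H2bc4 and H3c1. TATAAA, the letters of the TATA box, was searched at any position on both strands. It was present in 29 of the 62 promoters and in 12.4% of all 17492 protein-coding promoters of this length. On the gene strand it was present in 24, from 10 to 250 bp before the start (median 33 bp). In the 6 H4 promoters with it the median was 127.5 bp, so a match need not be a TATA box. CCAAT, the core of the CCAAT box, was present in 51 of 62 against 36.3% of all. It was found in all 6 H1, 18 H2A and 16 H2B promoters, in 8 of 10 H3 promoters and in 3 of 12 H4 promoters. ATGCAAAT, the octamer bound by Oct-1 (Pou2f1), was present in 7 H2A and 6 H2B promoters and in 1.61% of all promoters. Promoters of H2A and H2B genes transcribed away from each other overlap, so a motif there can be counted in both genes. The octamers of H2ac12 and H2bc12, of H2ac8 and H2bc8, and of H2ac1 and H2bc1 are shared in this way. The H2A and H2B counts, also those of CCAAT, are therefore not independent. GGTCCG, the core of the H4 promoter element bound by Hinfp, was added after the data were seen and was present in 9 of 12 H4 promoters, in 1 H2B promoter and 1 H3 promoter, and in 8.5% of all. GGTTCGA, the B box core of tRNA genes, was present in a single H2A promoter and in 0.818% of all. These motifs do not contain one another, and a match describes letters only. The 4 H4 promoters printed above have no CCAAT, and the H2ac11 promoter has it several times. Median GC content was 44.8% in the members and 55.2% in all promoters, from 40.4% in the H3 genes to 51.4% in the H1 genes.

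The lists are long and lenient. On the main chromosomes, 536399 and 520997 peaks were listed for Mgea5 in replicates 1 and 2. The numbers were 145209 and 478180 with Panx2, and 785 and 35727 with Polr1c. The number of sequenced reads is not known from these files, and the names of the peaks place Panx2 replicate 1 and Polr1c replicate 1 in one calling run and the other 4 lists in another. Each peak carries the authors' fold enrichment, the ratio of the ChIP signal to the local background, and a −log10 q, where 2 stands for a q-value of 0.01. Folds are set side by side only within a list.

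Mgea5 peaks were listed at nearly every clustered histone gene. Replicate 1 had a peak in the window of 65 members and replicate 2 in 66, and 64 of the 67 had one in both. Over all protein-coding genes the shares were 88.8%, 85% and, in both replicates, 82%, a background to which long genes contribute. Among the 2583 protein-coding genes of at most 2 kb they were 46%, 38.1% and 26%, and among the 1414 of these that are not Olfr or Vmn receptor genes 56.9%, 48.6% and 39%. Of the 61 members of that length 58 had a peak in both. In windows of 1 kb on either side of the start, which are equal in length for every gene, 58 of 62 members had a peak in both replicates against 40.4% of all genes with a start, and 60 had one in each single replicate, against 69.9% and 49.8%. A Mgea5 peak touched the gene itself in 60 members in replicate 1 and 57 in replicate 2, against 86.4% and 80.9% of all genes and 46.7% and 32.4% of the short ones other than Olfr and Vmn. In 60 members some peaks of the 2 replicates overlapped. The highest peaks of the 2 replicates, whose folds are given as pairs below, overlapped in 49 of the 64 and lay apart in 15, of which 9 were H2B genes and 1 was an H4 gene.

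**Figure D1:**
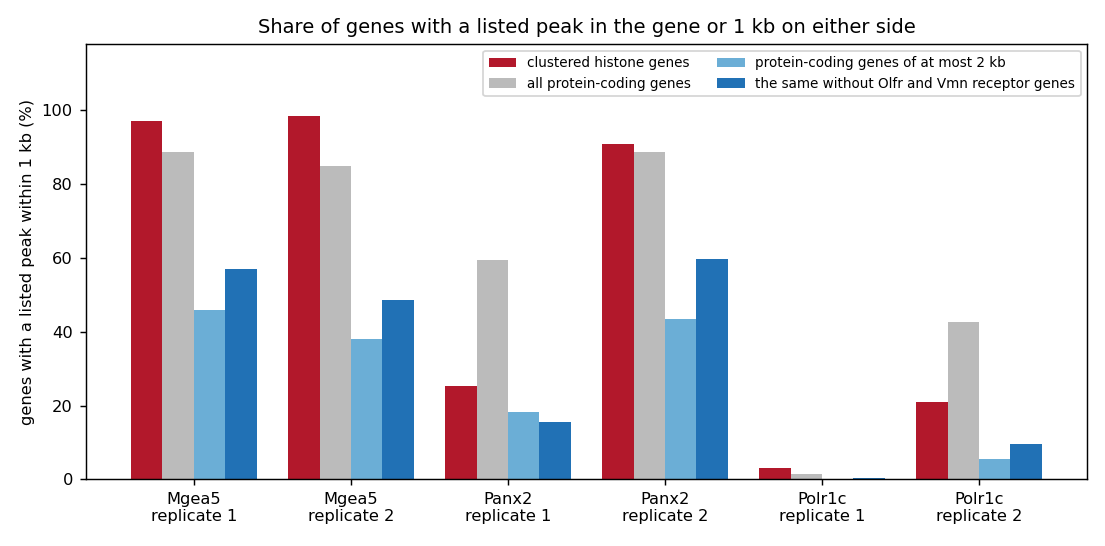
Share of genes (%, vertical axis) with at least 1 listed peak in the gene or 1 kb on either side, for each of the 6 peak lists, with 1 bar each for the 67 clustered histone genes, all 21887 protein-coding genes, the 2583 of at most 2 kb, and the 1414 of these that are not Olfr or Vmn genes. The histone bars stand above both bars of short genes in all 6 lists, where that of Polr1c replicate 1 rests on 2 genes (2.99%). They stand below the bar of all genes in Panx2 replicate 1 (25.4% against 59.5%) and in Polr1c replicate 2 (20.9% against 42.6%).

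The enrichment at these positions was modest. The highest Mgea5 fold per member ranged from 1.52 to 2.55 in replicate 1, with a median of 1.87 over the 65 members with a peak, and from 1.48 to 2.99 in replicate 2, with a median of 1.75 over 66. In start windows the medians were 1.85 and 1.72 for members with a peak, against 1.74 and 1.68 for all genes with one. Neighbouring genes often shared a peak: the windows held 77 and 82 distinct peaks, of which 29 and 31 lay in more than 1 window, so members are not independent. A −log10 q of at least 2 was reached at no member in replicate 1 and at 3 in replicate 2 (H4c9, H2ac11 and H4c12), and at none in both, where the background over all genes was 0.429%, 0.498% and 0.279%. A −log10 q of exactly 0 was deposited for 46 of the 77 peaks and 60 of the 82.

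The H4 genes, each encoding the same core histone, had the highest median Mgea5 fold of the 5 types in both replicates, 1.97 and 1.92. H4c9 (chromosome 13, 22040960 to 22041362) had a fold of 2.32 in replicate 1 and 2.69 in replicate 2, where its peak at 22040259 to 22041635 reached a −log10 q of 2.62. H4c12 (21750145 to 21750553) had 1.79 and 2.99, the second from a peak of 561 bp at 21750205 to 21750765 with a −log10 q of 3.40. H4c6 had 1.97 and 2.23, and H4c17 had 2.08 and 2.32. H4c14, with the highest pair of chromosome 3, had 2.01 and 1.92, and H4f16 on chromosome 6 had 1.74 and 1.92. Among the H4 genes H4c9 stood first in replicate 1 and second in replicate 2. H4c12 stood first in replicate 2 but under the H4 median in replicate 1.

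Mgea5 peaks covered the annotated start of nearly every H4 gene. These peaks were broad, with median widths of 1137 and 1227 bp against a median H4 gene length of 406 bp. They do not separate the start from the rest of the gene. Mean coverage in H4 genes was 66.7% and 80.6% in the 300 bp before the start. It was 75% and 83.3% in the 500 bp after it. Of the 12 H4 genes with an annotated start, 11 had a Mgea5 peak over the start base in replicate 1, all 12 in replicate 2, and 11 in both. H4f16, the lone H4 gene of chromosome 6, was the exception, with its start uncovered in replicate 1 and a fold of 1.92 in replicate 2. Over all genes with a start the share was 33.9% in replicate 1, 14.1% in replicate 2 and 8.45% in both, and for such genes of at most 2 kb other than Olfr and Vmn it was 24.6%, 12.9% and 6.19%.

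The start peaks of H4 genes had folds of 1.61 to 2.32 (median 1.97, 11 genes) and 1.60 to 2.99 (median 1.98, 12 genes). H4c11, whose promoter resembles that of H4c12, had 2.02 and 2.03, and H4c2 had 2.20 and 1.60. H4c8 had 1.83 and 2.07, H4c18 2.12 and 1.78, and H4c3 1.90 and 1.77. The lowest pairs were those of H4c4, with 1.61 and 1.81, and H4c1, with 1.69 and 1.60. This reading by start was chosen after the values of the members were seen.

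The other types had fewer covered starts. Of the 50 members with a start that are not H4 genes, 31 were covered in replicate 1, 15 in replicate 2 and 7 in both. The 7 were the linker histone gene H1f4, the H2A genes H2ac10, H2ac23 and H2ac24, the H2B genes H2bc23 and H4bc24, and the H3 gene H3c2. In replicate 1 a single peak covers the starts of H2bc23, H2ac23 and H4c17. In replicate 2 a single peak covers those of H2ac24, H4bc24 and H4c18, so these counts and those of H4 genes are not separate. In H3 genes 7 of 10 starts were covered in replicate 1 and 1 in replicate 2, and in H1 genes 5 of 6 and 1. These genes had their peaks downstream in replicate 2: coverage was highest 250 bp after the start in H3 genes, at 80%, and 350 bp after it in H1 genes, at 83.3%. In H4 genes it was 100% in the bin centred 50 bp before the start, and over all genes its highest value was 14%.

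**Figure D2:**
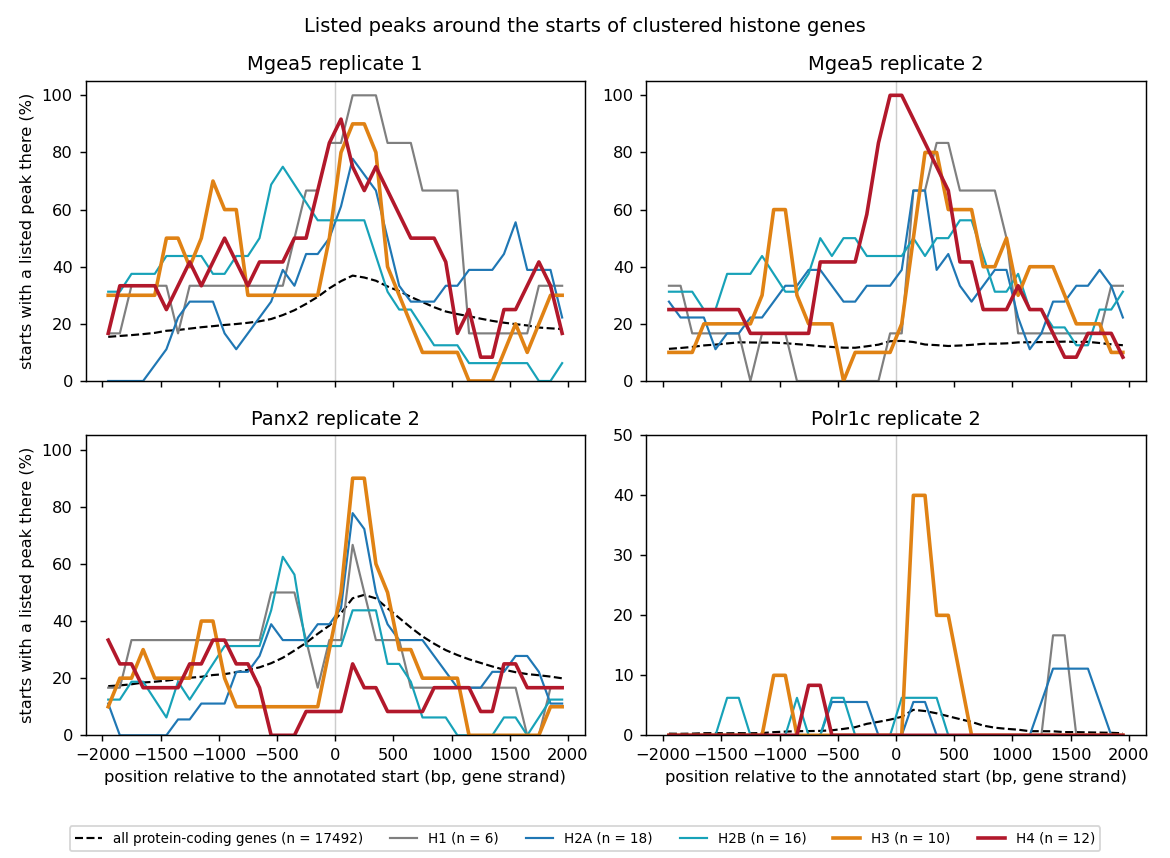
Share of annotated starts (%, vertical axis) with a listed peak at each distance from the start (bp along the strand of the gene, in bins of 100 bp), for H1, H2A, H2B, H3 and H4 genes and for all protein-coding genes (dashed), in 4 of the lists; the vertical scale of the Polr1c panel ends at 50%. In Mgea5 replicate 2 the H4 line reaches 100% around the start while the H3 line peaks at 80% after it, and in Panx2 replicate 2 the H3 line reaches 90% where the H4 line is at 25%.

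Among H3 genes, which encode the core histone whose tail carries many regulatory marks, all 12 had a Mgea5 peak in both replicates. H3c6 had the highest fold of all members in replicate 1, 2.55, and 1.79 in replicate 2. H3c11 had 2.05 and 2.16, and H3c3 had 1.78 and 2.40. H3c6 thus led replicate 1 and H3c3 replicate 2, with H3c11 second there. H3c10, H3c8 and H3c1 were among the 4 lowest of the 12 in both replicates.

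Of the 18 H2A genes 17 had a Mgea5 peak in both replicates, and so had 17 of the 18 H2B genes. H2ac11 carried the same values as H4c9, 2.32 and 2.69, because the H4c9 peaks reach into its window. H2ac23 likewise shared a peak with H4c17, at 2.08 and 2.32. H2bc6, the longest member, had the highest H2B pair with 1.88 and 2.25, from separate peaks inside the gene and more than 10 kb from either end. H2bu2 on chromosome 11 had 1.87 and 1.70. H2bc1 of the testis pair had 1.62 and 1.83, from peaks that do not overlap, and its replicate 2 peak does not touch the gene.

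The linker genes kept to folds under 2. Their Mgea5 folds ranged from 1.52 to 1.90 in replicate 1 (6 of 6 genes) and from 1.62 to 1.80 in replicate 2 (5 of 6). H1f6, which encodes the testis linker histone, had the highest pair in its window, 1.90 and 1.80, but the replicate 1 peak touches H4c3 and not H1f6. Over the genes themselves H1f6 had 1.67 and 1.80, and H1f4 had 1.85 and 1.79. H1f1, the last gene of the block at 23.5 Mb, had 1.52 in replicate 1 and no peak in replicate 2, the nearest lying 1327 bp away. The other members without a peak in both were H2aw and H2bc9, which lacked one in replicate 1 with the nearest at 1010 bp and 1034 bp, just outside the window. In replicate 2 their folds were 1.55 and 1.80.

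**Figure D3:**
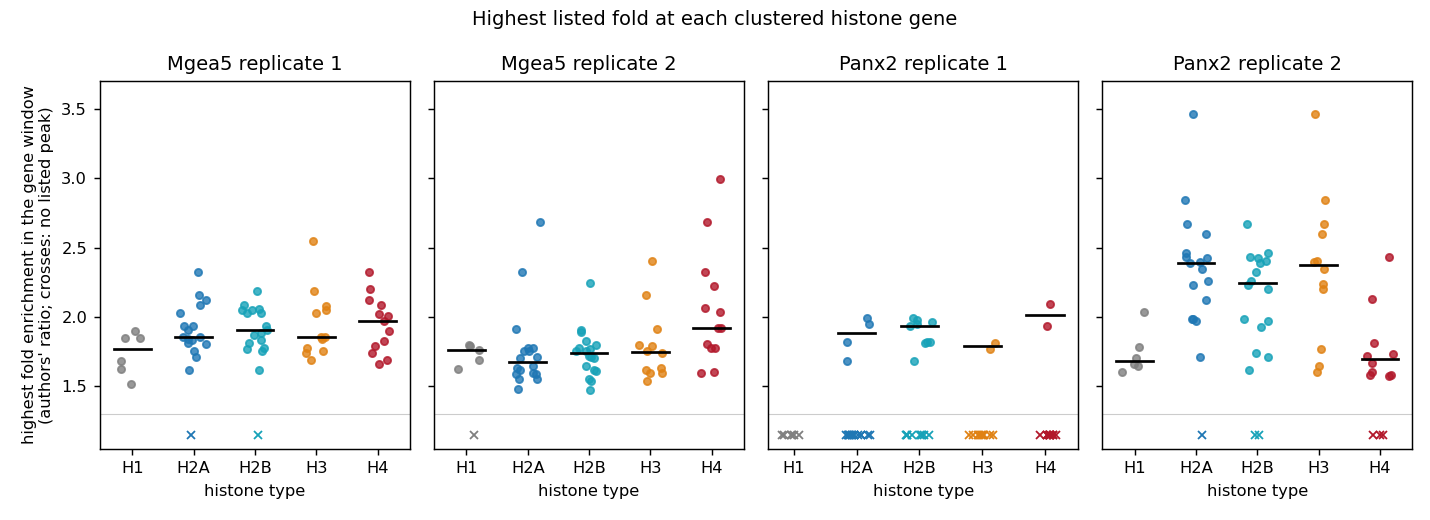
Highest fold of a listed peak in the window of each clustered histone gene (authors' ratio, vertical axis) by histone type, for Mgea5 and Panx2; each point is a gene, bars are medians of the genes with a peak, and crosses at the bottom are genes without one. H4 genes have the highest medians in both Mgea5 lists, 1.97 and 1.92. In Panx2 replicate 2 the medians of H1 and H4 genes are low, 1.68 and 1.70, where H2A, H2B and H3 genes stand at 2.39, 2.25 and 2.37.

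Peaks were denser at the genes than between them in several clusters. In the block at 23.5 Mb of chromosome 13, Mgea5 peaks covered 31.5% of the gene windows and 15.2% of the stretches between them in replicate 1, and 30.1% and 10.4% in replicate 2. In the block at 21.7 Mb the pairs were 36.1% and 24.7%, and 32.2% and 20.4%. The block at 22 Mb had 36.9% and 0%, and 39.1% and 5.00%, over only 2.639 kb between windows. On chromosome 3 the difference was present in replicate 1, with 29.2% and 15.8%, and small in replicate 2, with 28.7% and 26.4%. Panx2 peaks of the block at 23.5 Mb covered 4.60% of windows and 2.79% between them in replicate 1, and 17.4% and 9.33% in replicate 2. At 21.7 Mb they covered 8.68% and 5.12% in replicate 1, and 15.8% and 21.5% in replicate 2. On chromosome 3 they covered slightly less of the windows than of the rest in both replicates, with 4.37% and 6.45%, and 16.95% and 17.72%. Some of these Panx2 differences turned when the windows of genes of over 2 kb were left out: at 21.7 Mb replicate 2 then had 23.0% and 17.9%, and at 23.5 Mb replicate 1 had 2.82% and 3.83%. Over the whole genome the lists covered 13.3% and 10.4% for Mgea5 and 4.64% and 11.9% for Panx2.

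Panx2 gave different pictures in its replicates. Replicate 1 had a peak at 17 members and replicate 2 at 61, and 14 had one in both, against 57.1% of all protein-coding genes, 8.28% of those of at most 2 kb (where the members count 11 of 61) and 10.7% of these without Olfr and Vmn genes. In start windows 13 of 62 members had a peak in replicate 1, 54 in replicate 2 and 10 in both, against 12.7%, 74.1% and 9.33% of all genes. Single replicates compare with 59.5% and 88.6% of all genes. Of the 61 short members 14 and 55 had a peak, against 18.2% and 43.4% of genes of at most 2 kb, and 15.6% and 59.7% of these without Olfr and Vmn genes. No Panx2 peak of replicate 1 at a member had a −log10 q above 0, and over all genes 0.00457% had one with a value of at least 2 in replicate 1, and as many in both. The Panx2 lists also differed in length and in calling run, and the part of either in this difference was not tested.

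By type, 7 of 18 H2B genes had a Panx2 peak in both replicates, with 3 of 18 H2A, 2 of 12 H3, 2 of 13 H4 and no H1 gene. All 6 members of over 2 kb are H2B genes, and 3 of the 7 (H2bc22, H2bc6 and H2bc4) are among them. Of the H2B genes of at most 2 kb 4 of 12 had a peak in both, where the share was 8.28% of genes of that length and 10.7% of those other than Olfr and Vmn. The highest pair at overlapping peaks was 1.95 and 2.39, at H2ac11 and H2bc11, which share both peaks. The pairs of H2bc22 (1.97 and 2.46), H3c10 (1.77 and 2.60) and H2bc18 (1.82 and 2.40) come from peaks that do not overlap. At H2bc22 the peaks lie at 21801490 to 21802848 and at 21786959 to 21787227, at opposite ends of its window, and the second does not touch the gene. Among H4 genes H4c18 had 2.09 and 1.73, and the highest pair of the block at 23.5 Mb, 1.99 and 1.97, belonged to H2ac6 and H2bc4. Some peaks of the 2 replicates overlapped in 10 of the 14 genes, and the highest ones in 9.

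Within Panx2 replicate 2 the histone types differed in where the peaks lay. A peak touched the gene itself in 12 of 12 H3 genes, 15 of 18 H2A, 11 of 18 H2B and 5 of 6 H1 genes, but in 3 of 13 H4 genes (H4c12, H4c17 and H4c2). The share over all protein-coding genes was 86.6%, and 50.2% over those of at most 2 kb other than Olfr and Vmn. Replicate 1 did not show this order, touching no H3 gene and only H4c11 among H4 genes, against 55.5% of all genes and 7.71% of short ones. Panx2 covered the start base of 4 of 62 members in replicate 1, 18 in replicate 2 and none in both, against 2.82%, 40.3% and 0.818% of all genes, and 3.18%, 24.8% and 0.172% of short ones other than Olfr and Vmn. The contrast between H3 and H4 genes was chosen after the values were seen and rests on 1 list.

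The strongest Panx2 peak at a member lay over H3c8, at 23535360 to 23535679 of chromosome 13, with a fold of 3.46 and a −log10 q of 2.14 in replicate 2. It also falls in the window of H2ac10, and these 2 were the only members at a −log10 q of at least 2, against 0.905% of all genes. Neither gene had a Panx2 peak in replicate 1. A peak over H3c14 followed, with a fold of 2.84 and a −log10 q of 1.33.

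Polr1c peaks were few, and the strongest in the window of a member lay over a tRNA gene. In replicate 1 only H4c8 and H2bc6 had a Polr1c peak, against 1.48% of all protein-coding genes. In replicate 2, 14 members had one, from 8 distinct peaks, against 42.6% of all genes, 5.65% of those of at most 2 kb and 9.69% of these without Olfr and Vmn genes. H4c8 was the 1 member with a peak in both, where the background was 1.28% of all genes, 0.194% of those of at most 2 kb and 0.354% of these without Olfr and Vmn genes. In replicate 1 the short backgrounds were 0.232% and 0.424%, with 1 of 61 members. In start windows 1 member had a peak in replicate 1, 11 in replicate 2 and 1 in both, against 0.497%, 14.4% and 0.434% of all genes. The H4c8 peaks lay at 23530236 to 23530498, with a fold of 4.85 and a −log10 q of 4.99, and at 23530285 to 23530476, with a fold of 4.93 and a −log10 q of 6.52. Both cover n-TMcat9, a methionine tRNA gene by its symbol, at 23530348 to 23530419, which is 625 bp from H4c8, and neither touches H4c8 itself. The Mgea5 peaks over the start of H4c8, with folds of 1.83 and 2.07, also reach across this tRNA gene. RNA polymerase III, of which Polr1c is a subunit, transcribes tRNA genes.

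The wider region holds further such sites. Of the 79 tRNA genes between 21.6 and 24 Mb of chromosome 13, 21 had a Polr1c peak within 200 bp in replicate 1, 25 in replicate 2 and 17 in both, with folds of up to 8.27 and 5.67. Neighbouring tRNA genes can share a peak, as n-TGgcc7 and n-TMcat7 do in replicate 1 (fold 7.70), so there are fewer sites than genes counted. The share over all 408 tRNA genes of the main chromosomes is not given here. Only n-TMcat9 lay within 1 kb of a clustered histone gene. The Polr1c peak of H2bc6 in replicate 1, at 23601519 to 23601801 inside this long gene, had a fold of 2.76 and a −log10 q of 0, and it had no counterpart in replicate 2.

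**Figure D4:**
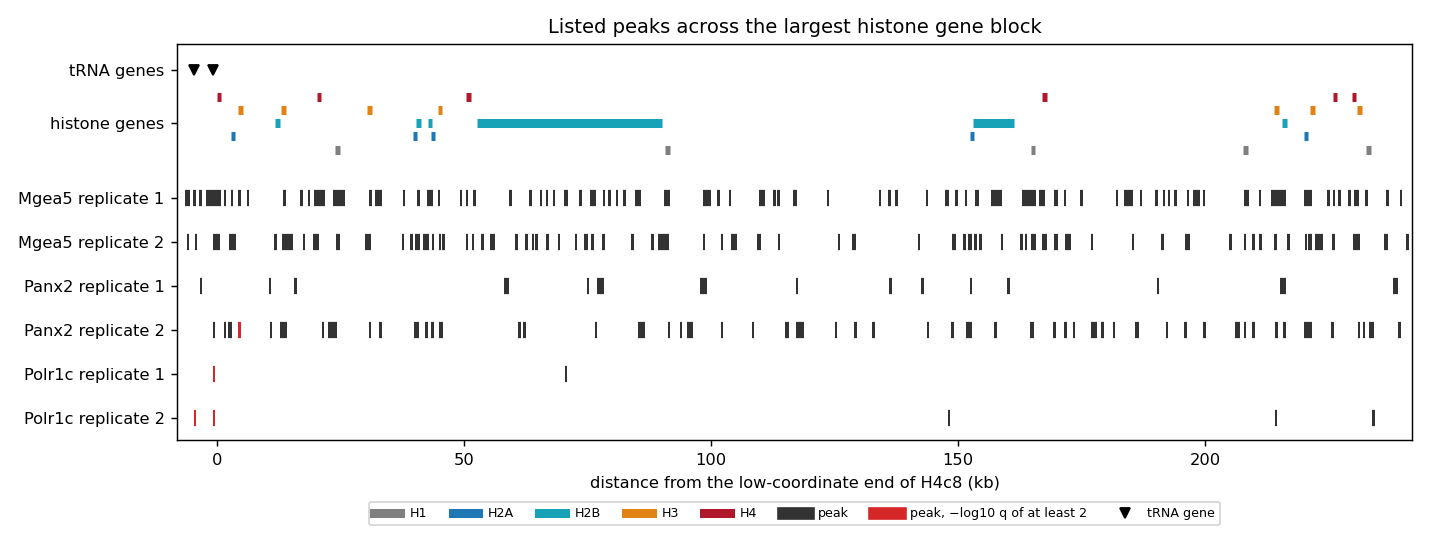
Listed peaks (black, or red where the −log10 q is at least 2) of the 6 lists across the block of 29 histone genes on chromosome 13 and 8 kb on either side, as distance in kb from the low-coordinate end of H4c8; genes are coloured by histone type, triangles are tRNA genes, and marks of short genes and peaks are widened to be visible. Both replicates have a Polr1c peak at the tRNA gene beside H4c8, replicate 2 has another (fold 5.00) at the tRNA gene n-TRtcg1, 4516 bp from H4c8, and Mgea5 peaks (80 and 71) are spread across the block.

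Away from tRNA genes, the Polr1c peaks of replicate 2 touched 4 of the 12 H3 genes, 1 of 18 H2A genes and 1 of 18 H2B genes. The reading by type rests on 1 list, and 2 of the 4 H3 genes, H3c14 and H3c15, are similar copies. H3c14 (96246685 to 96247348 of chromosome 3) had a peak with a fold of 3.48 and a −log10 q of 4.14, and H3c15 (96238479 to 96239127) had one with 3.34 and 4.38. These peaks also fall in the windows of H2ac18 and H2ac19. H2bc15 had a peak with a fold of 3.73 and a −log10 q of 2.0 at 21754124 to 21754495, which lies in the window of H2ac15 too. The other peaks were weaker, with folds of 2.0 at H3c13, 2.85 at H2ac13, 2.14 at H3c3 and 2.27 beside H1f1.

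Of the 8 Polr1c peaks of replicate 2 in member windows, 6 touched a histone gene. None of these 6 sites had a Polr1c peak in replicate 1. Counted by gene, a replicate 2 peak touched 6 of 67 members (8.96%), against 40% of all protein-coding genes. Among the 61 short members it touched 6 (9.84%), against 6.93% of short genes other than Olfr and Vmn. In replicate 1 the counts were 1 of 67 and 0 of 61, against 1.28% and 0.212%. With a −log10 q of at least 2 there was 1 member in replicate 1, 7 in replicate 2 and 1 in both, against 0.475%, 3.71% and 0.425% of all genes. The 7 come from only 4 distinct peaks, among them the peak over the tRNA gene beside H4c8. No Polr1c peak covered the start base of any of the 62 members, against 0.234% in replicate 1, 2.78% in replicate 2 and 0.194% in both over all genes (0.172%, 1.29% and 0.172% of short ones).

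Several of the named genes have identical or similar copies. The 250 bases before the start were identical in H2bc23 and H4bc24 and 99.2% identical in H4c17 and H4c18. They were 88.7% identical in H3c14 and H3c15 and 86.0% in H4c11 and H4c12, with type medians of 49.5% to 55.7%. Identity was taken over all aligned columns, gaps included, so the same sequence at a shifted position scores lower. For H3c14 and H3c15, 235 bases were identical over 265 columns, and the printed sequences are nearly the same stretch, shifted. How reads that match several copies were placed is not given in the sources used here, so the values of such genes are uncertain individually. H3c14 and H3c15, which carry the Polr1c peaks of replicate 2, are among them, and so are H4c17 and H4c12. The promoters of H2ac23 and H2ac24 (52.4%) and of H2ac18 and H2ac19 (71.4%) also share long stretches with nearly the same letters at shifted positions. The values of these genes carry the same uncertainty.

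Many H2A and H2B genes are transcribed away from each other from a shared promoter. There were 10 such pairs, with starts 164 to 281 bp apart (median 204.5 bp). A Mgea5 peak lay between the starts in 6 pairs in replicate 1, 5 in replicate 2 and 2 in both, where the 120 other protein-coding pairs with starts at these distances had 44.2%, 20.8% and 20%. The 2 were H2bc23 with H2ac23 and H2ac24 with H4bc24, whose H2B promoters are identical. A Panx2 peak lay there in 1 pair in replicate 1, 5 in replicate 2 and none in both, against 5%, 47.5% and 1.67%. Of the 42 other member starts, Mgea5 covered 30 and 17, and Panx2 covered 2 and 8. H2ac11 and H2bc11 form such a pair, and their promoter has the CCAAT letters printed above.

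Genes that supply, process or replace these histones were compared as 5 lists of 40 genes in all. Every one of the 40 had a Mgea5 peak in both replicates, 22 a Panx2 peak and 1 a Polr1c peak, but their median length was 16934.5 bp and the background for all genes was 82%, 57.1% and 1.28%. In start windows 17 of the 34 with a start had a Mgea5 peak in both replicates (40.4% of all genes) and 3 a Panx2 peak (9.33%).

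The replication-independent histone genes, which are expressed outside S phase, had 11 of 11 with Mgea5 and 6 with Panx2 in both replicates. Among them Macroh2a1, a large H2A variant, had the highest Mgea5 pair, 2.32 and 2.0. The regulators of histone gene transcription counted 9 of 9 and 6. Their Mgea5 folds were 2.05 and 2.14 at Pou2f1, 1.84 and 2.12 at Npat, the coactivator itself, and 1.97 and 2.20 at Gon4l. At Macroh2a1, Pou2f1, Npat and Gon4l alike, the peaks of the 2 replicates behind the pair do not overlap. Pou2f1, the octamer factor, was the 1 gene of these lists with a Polr1c peak in both replicates, but the peaks lie at different places in this gene of 137600 bp: 165892686 to 165893019 of chromosome 1, with a fold of 2.76 and a −log10 q of 0, and 166001569 to 166001762, with 3.16 and 0.70.

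The mRNA 3′ end processing factors counted 11 of 11 with Mgea5 and 4 with Panx2, the decay factors 3 of 3 and 1, and the chaperones with the acetyltransferase Hat1 6 of 6 and 5. Ncbp2, the small subunit of the cap-binding complex, had Mgea5 folds of 4.37 and 3.04 with −log10 q of 9.62 and 5.5, higher than any clustered histone gene. Cpsf3, the endonuclease that cuts histone pre-mRNA, had a Polr1c fold of 5.77 (−log10 q of 18.0) across its low-coordinate end in replicate 2 and no peak in replicate 1. Hat1, which acetylates new H4, had a Panx2 fold of 3.76 (−log10 q of 2.3) in replicate 2. Eri1, the exonuclease that trims histone mRNA, had Mgea5 folds of 2.37 and 1.95, and Asf1a, an H3 and H4 chaperone, had 1.87 and 2.27, in both genes from peaks that do not overlap.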

How the data were processed

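Per the submitters' processing notes, reads were handled on mm10 with Bowtie2 2.3.5, Trim Galore and MACS3 3.0.0a5. The sources used here do not give the control used in calling, the thresholds, the placing of reads that match several copies or the treatment of duplicates. The authors deposited a peak list per replicate, with a fold enrichment (a ratio), a −log10 p and a −log10 q per peak. The deposited score and summit columns (other values) were not used for results. No column of per-sample values was left unassigned (0). Peaks of the 21 main chromosomes were joined to RefSeq genes and promoters with Python 3.11.15, numpy 2.4.6 and pandas 2.3.3, promoters were aligned with Biopython 1.88, and figures were drawn with matplotlib 3.10.9. The overlap routine was tested on simulated peaks. No test was run: members are set beside the same share of all genes. The members and lists were chosen with earlier results of these data known. Named are members lacking a Mgea5 peak in both replicates. Also named are those with a −log10 q of at least 2 or a Polr1c peak in replicate 1. The 5 highest pairs per protein and the highest pair per type and cluster are named too. For the other lists the highest Mgea5 pair is named, and the Panx2 pairs are not. Further members were named after their values were seen. The settings varied were a stricter −log10 q (2 or more), equal list lengths, 200 bp of overlap, other windows and leaving out each replicate, and, after the data were seen, start windows and leaving out genes of over 2 kb.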

Additional observations from a re-analysis of the deposited data

How the results depend on the processing

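No paired analysis was possible because the results are counts and medians of listed peaks and come from no test. The 64 members with a Mgea5 peak in both replicates became 0 at a −log10 q of at least 2, and were 51 for the gene alone, 67 within 2.5 kb, and 65 to 66 when each replicate was left out. The 14 members with a Panx2 peak in both became 0 at that q, 9 with lists of equal length, 7 for the gene alone, 27 within 2.5 kb, and 17 to 61 when each replicate was left out (61 without replicate 1). The 1 member with a Polr1c peak in both, H4c8, became 0 for the gene alone and 0 at an overlap of 200 bp, and 2 to 14 when each replicate was left out. The overlap setting says nothing about H4c8, because its replicate 2 peak (23530285 to 23530476) is itself narrower than 200 bp. The median peak width of that whole list is 189 bp. The highest fold of each member was also averaged over the replicates, with 0 where no peak was listed, so that the result is not the fold of any peak. The median of this average over the 67 members was 1.82 for Mgea5, between 1.75 and 1.88 under its alternatives. For Panx2 it was 1.16, and from 0 to 2.12 when each replicate was left out. With 2 replicates per protein and no read counts, no error of a fold can be given, and members that share peaks or copies are not independent.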
